A study of Mus musculus with 6 samples.

Results

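The osteocyte maturation genes are 10 mouse genes linked to the step from osteoblast to osteocyte: Dmp1, Mepe, Phex, Pdpn, Fbln7, Ackr3, Irx5, Ptprz1, Cd44 and Capg. All 10 were found by symbol among the 27179 gene IDs of the deposited count table. Their levels were measured by RNA sequencing in calvarial (skull bone) cells from mice of the C57Bl/6J strain aged 5 days. There were 3 libraries titled Cdc73/Hrpt2 Flox and labelled Cdc73/Hrpt2 KO, a conditional knockout, and 3 labelled Wildtype. In both groups the cells were freed with collagenase and sorted for a GFP transgene controlled by Osteocalcin-Cre, a recombinase of maturing osteoblasts, so the measurements concern the GFP-positive fraction alone. The labels do not give the deleted exons, the number of animals behind a library or their litters, so that a p-value here reflects only how far these libraries spread, which may be technical.

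Osteocytes arise from osteoblasts that are buried in the matrix they secrete. During embedding the cell grows dendrites, a step linked to podoplanin (Pdpn, also called E11). It then switches on genes that govern mineral and phosphate, among them Phex, Dmp1 and Mepe. Late osteocytes make sclerostin (Sost) and FGF23, the hormone by which bone controls phosphate loss in the kidney. The product of Cdc73, parafibromin, belongs to the Paf1 complex, which travels with RNA polymerase II.

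Library totals were 14837272 to 16380767 counts in the knockout group and 13591925 to 20993962 in the wildtype group. Cdc73 itself measured 13.98, 14.73 and 14.40 CPM in knockout 1, 2 and 3, against 20.50, 12.80 and 21.73 CPM in wildtype 1, 2 and 3, where CPM is the count scaled to a common library size with TMM factors. Wildtype 2 lay below every knockout library, so the count over the whole gene did not check every label, and the names knockout and wildtype below are those of the labels. The library labelled wildtype 1 correlated with the knockout libraries at 0.973 to 0.983 and with wildtype 2 and 3 at 0.940 and 0.945 (Pearson's r of log2 CPM across genes, which are not independent replicates). Counts were found for 17068 to 18024 IDs in the knockout libraries and 17947 in wildtype 1, against 14608 and 15712 in wildtype 2 and 3. Values with and without wildtype 1 are therefore given below for the members that differed most. The sorted cells carried the osteoblast markers in bulk, with 236900 to 350500 CPM summed over 9 markers in the knockout libraries and 281000 to 306500 CPM in the wildtype libraries, led by the collagen genes Col1a1 and Col1a2.

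Of the 10 members, Ackr3, Fbln7 and Dmp1 stood higher in the libraries labelled knockout. Cd44 was also higher in every knockout library, by a smaller margin (log2 fold change 0.28 ± 0.15). The others differed little or not consistently. The fold change of knockout over wildtype fitted by edgeR was 1.72 for Fbln7, 1.66 for Ackr3 and 1.34 for Dmp1. No member had an adjusted p under 0.05 in edgeR (quasi-likelihood, Benjamini-Hochberg over all 13505 genes tested), where 0 genes or 0% passed, against 248 with DESeq2. At an unadjusted p under 0.05 there were 3 members higher and 0 lower, against 8.26% and 6.35% of all genes tested (14.6% in either direction). With library size alone in place of TMM there were 2 higher, Ackr3 and Fbln7, and 0 lower, against 3.52% and 18.4% of all genes. Without wildtype 1, 0 members passed after adjustment, against 2.13% of genes called higher and 0.832% called lower. In 4 members the knockout libraries were all above the wildtype libraries, against 10.6% of all genes, and in 0 members all below, against 9.81%. A positive fold change was seen in 6 of the 10 members, against 49.3% of all genes. The median log2 fold change of the 10 members was 0.11, beside -0.0058 over all genes tested.

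**Figure D1:**
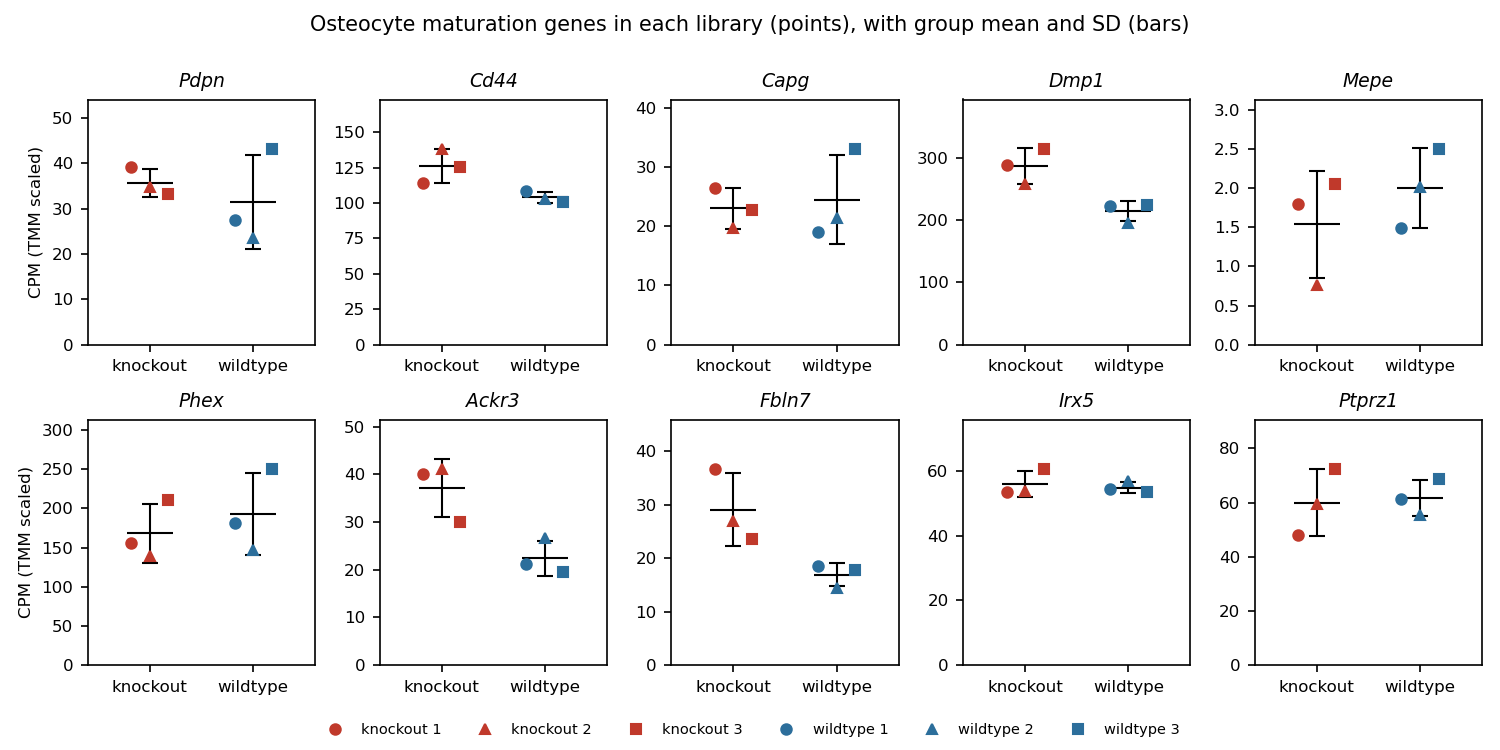
Level of each osteocyte maturation gene (CPM, TMM scaled; linear axes from 0) in the 3 knockout and 3 wildtype libraries, with points for libraries and bars for the group mean and SD. Dmp1, Cd44, Ackr3 and Fbln7 show no overlap between the groups, and Irx5 is nearly level over all 6 libraries.

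The members spanned a wide range of abundance. Divided by exonic length (the union of exons in GENCODE M21), Dmp1 was the most abundant at 103.8 ± 10.3 CPM per kb in knockout and 77.6 ± 5.98 in wildtype libraries (SD, n = 3 each). Phex followed at 26.7 ± 5.95 CPM per kb in knockout and 30.7 ± 8.37 in wildtype. Pdpn (19.6 ± 1.72 and 17.3 ± 5.74), Cd44 (18.6 ± 1.78 and 15.3 ± 0.574) and Irx5 (17.9 ± 1.28 and 17.5 ± 0.554), each in knockout and wildtype in that order, formed a middle tier. Their spreads overlapped in the knockout group, while in the wildtype group Irx5 stood above Cd44 by more than either SD. Below them came Ackr3 at 11.1 ± 1.83 CPM per kb in knockout and 6.70 ± 1.10 in wildtype, Capg at 9.08 ± 1.34 and 9.68 ± 2.98, and Fbln7 at 9.01 ± 2.11 and 5.23 ± 0.658, whose spreads overlapped in the knockout group. Ptprz1 had 4.21 ± 0.864 CPM per kb in knockout and 4.34 ± 0.470 in wildtype, and Mepe was the scarcest at 0.916 ± 0.407 and 1.19 ± 0.304. In CPM regardless of length, Dmp1 and Phex stood at percentiles 98.2 and 96.9 of the genes tested, and Mepe at percentile 12.3. No exon of a member overlapped an exon of another gene in GENCODE M21.

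The genes of embedding come first. Pdpn, the membrane glycoprotein needed for dendrite growth in cultured osteocytes, measured 39.2, 34.8 and 33.2 CPM in knockout 1, 2 and 3, against 27.4, 23.7 and 43.3 CPM in wildtype 1, 2 and 3. The knockout libraries lay close together inside the range of the wildtype libraries, of which wildtype 3 was the highest and wildtype 2 the lowest of all 6. The log2 fold change was 0.18 with a 95% confidence interval from -0.32 to 0.69, and it was -0.0029 without wildtype 2 and 0.47 without wildtype 3.

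Cd44, the hyaluronan receptor that also binds osteopontin, measured 114, 138 and 125 CPM in knockout 1, 2 and 3, against 108, 103 and 101 CPM in wildtype 1, 2 and 3. The groups did not overlap, with knockout 1 and wildtype 1 the closest pair. Cd44 had a log2 fold change of 0.28 ± 0.15 (SE) and did not pass (edgeR adjusted p = 0.391). Leaving wildtype 1 out gave 0.29, and using it as the sole control gave 0.21; with library size alone it was 0.072. Cd44 is also made by blood cells. All 8 macrophage markers, led by Csf1r and Mrc1, had a positive fold change. They summed to 303, 240 and 141 CPM in knockout 1, 2 and 3, against 116, 113 and 75.1 CPM in wildtype 1, 2 and 3. All 7 neutrophil markers, led by S100a9 and Ngp, were likewise positive, with Elane at 0 in 1 library. They summed to 181, 73.7 and 53.2 CPM in knockout 1, 2 and 3, against 22.95, 19.5 and 51.7 CPM in wildtype 1, 2 and 3. Among the knockout libraries, knockout 1 was the lowest for Cd44 and the highest for both sums. The wildtype libraries ranked alike for Cd44 and the macrophage sum. The part of these cells in the Cd44 values was not tested. In bulk libraries of this kind a change in the number of cells of a type and a change in RNA per cell cannot be told apart.

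Capg, a gelsolin-family protein that caps actin filaments, measured 26.5, 19.7 and 22.8 CPM in knockout 1, 2 and 3, against 19.1, 21.3 and 33.1 CPM in wildtype 1, 2 and 3. The groups overlapped fully, with both extremes among the wildtype libraries. Its log2 fold change was -0.089 ± 0.23, with a 95% confidence interval from -0.61 to 0.43. Capg is expressed in macrophages as well. Its highest library, wildtype 3, had the lowest of the macrophage sums given above. Among the knockout libraries, knockout 1 was the highest for both. The part of macrophages in the Capg values was not tested.

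The genes of mineral and phosphate control had fold changes of both signs. Dmp1, an acidic phosphoprotein of the osteocyte matrix whose loss causes hypophosphatemic rickets, measured 288, 258 and 315 CPM in knockout 1, 2 and 3, against 223, 195 and 225 CPM in wildtype 1, 2 and 3. Its lowest knockout library exceeded its highest wildtype library, and the SD was 9.92% of the mean in knockout and 7.71% in wildtype. Dmp1 thus had a log2 fold change of 0.42 ± 0.16 (95% confidence interval 0.055 to 0.79) and did not pass (edgeR adjusted p = 0.312). It was positive under all 19 alternatives in processing, from 0.21 with library size alone to 0.67 with libraries scaled to osteoblast markers. Leaving wildtype 1 out gave 0.43, and using it as the sole control gave 0.35.

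Phex, the membrane endopeptidase whose loss causes X-linked hypophosphatemia, measured 155, 139 and 210 CPM in knockout 1, 2 and 3, against 181, 147 and 251 CPM in wildtype 1, 2 and 3. In each group the library numbered 3 was the highest and the library numbered 2 the lowest, and the groups overlapped. For Phex the log2 fold change was -0.20 ± 0.24 (95% confidence interval -0.73 to 0.33), and it turned to 0.026 without wildtype 3.

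Mepe, a small phosphoglycoprotein that restrains mineralization, was the scarcest member, with 30, 11 and 25 counts in knockout 1, 2 and 3 and 34, 29 and 42 counts in wildtype 1, 2 and 3. These correspond to 1.80, 0.764 and 2.06 CPM in the knockout libraries and 1.49, 2.02 and 2.51 CPM in the wildtype libraries. The exact Poisson interval of the lowest library, knockout 2, ran from 0.382 to 1.37 CPM and that of the highest, wildtype 3, from 1.81 to 3.39 CPM (95%, counting error only). The groups overlapped, and the log2 fold change of -0.38 ± 0.49 shrank to -0.052 without knockout 2 and was 0.036 against wildtype 1 alone.

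Dmp1 and Mepe lie in the SIBLING cluster, a run of genes for secreted acidic phosphoproteins of bone and tooth, on chromosome 5 of GRCm38 (mm10). Dspp spans 104170703 to 104180127, Dmp1 104197575 to 104214102, Ibsp 104299287 to 104311472, Mepe 104325329 to 104338611 and Spp1 104435111 to 104441053. Between these neighbours the log2 ratio of Mepe to Dmp1 counts, which does not depend on how libraries are scaled, was -7.32, -8.40 and -7.26 in knockout 1, 2 and 3, against -7.23, -6.60 and -6.48 in wildtype 1, 2 and 3. Every knockout library had less Mepe per Dmp1 than every wildtype library, although knockout 3 and wildtype 1 nearly met. The mean difference was -0.89, with a p of 0.1 in a two-sided exact permutation test, the smallest value that 3 against 3 libraries can give. Without knockout 2, the library with 11 Mepe counts, it was -0.52. The other genes of the cluster overlapped between the groups. Ibsp, encoding bone sialoprotein, measured 1793 ± 220 CPM in knockout and 1697 ± 18.9 in wildtype (log2 fold change 0.080 ± 0.18). Spp1, encoding osteopontin, measured 5968 ± 2154 CPM in knockout and 5698 ± 2657 in wildtype (0.067 ± 0.35). Both log2 fold changes were negative with library size alone (-0.14 and -0.17). Dspp, a gene of dentin, had 2, 0 and 7 counts in the knockout libraries and 2, 3 and 0 in the wildtype libraries and was too low to test.

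The start regions of these neighbours and of the pair with the largest fold changes are shown because these members differed unequally between the groups. They are the RefSeq windows of build GRCm38.p6 from 250 bases before to 50 bases after the transcription start, 5′ to 3′ on the coding strand, all on the plus strand. Capitals mark the Runx core TGTGGT or its reverse complement ACCACA, bound by the osteoblast factor Runx2, and the TATA box letters TATAAA or their reverse complement TTTATA; both strands were searched and no matches overlap.
Dmp1, chr5:104202367-104202666: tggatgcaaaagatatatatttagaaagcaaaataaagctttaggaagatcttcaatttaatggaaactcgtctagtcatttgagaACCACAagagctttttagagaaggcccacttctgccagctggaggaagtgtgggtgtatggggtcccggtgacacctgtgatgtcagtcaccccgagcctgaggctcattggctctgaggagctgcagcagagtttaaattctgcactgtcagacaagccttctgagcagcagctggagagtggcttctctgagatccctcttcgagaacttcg
Mepe, chr5:104325079-104325378: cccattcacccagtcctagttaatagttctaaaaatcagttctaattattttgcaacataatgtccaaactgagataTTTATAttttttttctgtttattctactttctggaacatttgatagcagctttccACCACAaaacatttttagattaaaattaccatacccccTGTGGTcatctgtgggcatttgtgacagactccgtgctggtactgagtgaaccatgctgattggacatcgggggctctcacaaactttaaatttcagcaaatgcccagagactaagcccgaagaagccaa
Ackr3, chr1:90203730-90204029: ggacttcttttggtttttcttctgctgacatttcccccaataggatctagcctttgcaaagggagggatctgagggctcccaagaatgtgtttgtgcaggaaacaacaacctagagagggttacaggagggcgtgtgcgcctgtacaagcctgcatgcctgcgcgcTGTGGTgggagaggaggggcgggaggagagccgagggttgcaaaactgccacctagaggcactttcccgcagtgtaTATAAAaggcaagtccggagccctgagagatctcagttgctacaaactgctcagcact
Fbln7, chr2:128863682-128863981: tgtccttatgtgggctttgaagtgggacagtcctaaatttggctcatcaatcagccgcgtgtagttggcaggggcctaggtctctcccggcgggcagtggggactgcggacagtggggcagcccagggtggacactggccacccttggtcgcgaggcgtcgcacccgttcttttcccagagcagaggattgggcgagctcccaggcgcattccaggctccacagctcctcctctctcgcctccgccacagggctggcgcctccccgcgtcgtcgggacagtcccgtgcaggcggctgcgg
The Dmp1 window is the downstream of its 2 annotated starts and held 1 Runx core, on the reverse strand, while the window of the upstream start, chr5:104197325-104197624, held 0 of either motif and is not printed. The Mepe window held 2 Runx cores and 1 TATA match on the reverse strand. The Ackr3 window held 1 Runx core and 1 TATA match close to the annotated start. The Fbln7 window held 0 of either. The windows of Phex, Pdpn, Cd44, Capg and Ptprz1, which are not printed, also held 0 of either. Among all 32851 promoter windows of the table, 16.8% held the Runx core and 13.6% the TATA letters. A match here is a string of letters and was not tested for binding, and 9 of the 10 members had a window in the table, Irx5 being the one without.

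The remaining members belong to the transcript signature of mature osteocytes. Ackr3, a receptor that takes up and removes the chemokine CXCL12, measured 40.0, 41.1 and 30.0 CPM in knockout 1, 2 and 3, against 21.1, 26.6 and 19.6 CPM in wildtype 1, 2 and 3. All 3 knockout libraries were above all 3 wildtype libraries, with the gap narrowest between knockout 3 and wildtype 2. Ackr3 had a log2 fold change of 0.73 ± 0.19 (95% confidence interval 0.30 to 1.15), which did not pass (edgeR adjusted p = 0.273). The DESeq2 Wald test called it (adjusted p = 0.0443), in a run that called 1.78% of genes as higher and 0.254% as lower. With DESeq2 the call was lost without knockout 1 (adjusted p = 0.428), knockout 2 (0.523) or wildtype 3 (0.203) and held without the other libraries. In edgeR the log2 fold change was 0.67 without wildtype 1 and 0.80 against wildtype 1 alone.

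Ackr3 is also active in endothelial cells. All 8 endothelial markers tested, led by Cdh5 and Pecam1, had a positive fold change, and their summed level was 205, 188 and 120 CPM in knockout 1, 2 and 3, against 118, 52.1 and 42.7 CPM in wildtype 1, 2 and 3. No endothelial marker was at 0 in any library. Ackr3 was highest in the library numbered 2 of each group, and the endothelial sum in the library numbered 1 of each group. For Ackr3 knockout 1 and knockout 2 were close, at 40.0 and 41.1 CPM. Both Ackr3 and the endothelial sum were lowest in the library numbered 3 of each group. Lymphatic markers summed to 8.89 to 13.97 CPM in knockout and 2.09 to 10.1 CPM in wildtype libraries, with all 4 tested of 5 positive, Lyve1 and Flt4 leading, and Prox1, Reln and Ccl21a at 0 in 1, 1 and 3 libraries. Their part in the Ackr3 or Pdpn values was not tested.

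Fbln7, a secreted adhesion protein of the fibulin family, measured 36.7, 26.96 and 23.6 CPM in knockout 1, 2 and 3, against 18.5, 14.5 and 17.7 CPM in wildtype 1, 2 and 3. The groups did not overlap, and knockout 1 stood well above the other 2 knockout libraries. Fbln7 had a log2 fold change of 0.79 ± 0.20 (95% confidence interval 0.33 to 1.24), which did not pass (edgeR adjusted p = 0.273). DESeq2 called it (adjusted p = 0.0468), and that call was lost without knockout 1 (0.495), knockout 2 (0.303), wildtype 2 (0.245) or wildtype 3 (0.128). In edgeR the log2 fold change was 0.57 without knockout 1, 0.83 without wildtype 1 and 0.65 against wildtype 1 alone. Chondrocyte markers were higher in the same libraries, with all 10 positive, none at 0 in any library, and Col2a1 and Col11a2 the most abundant. Their summed level was 25200, 14630 and 11850 CPM in knockout 1, 2 and 3, against 9643, 4155 and 3483 CPM in wildtype 1, 2 and 3. The knockout libraries ranked alike for Fbln7 and for this sum, whereas wildtype 2 and 3 ranked in opposite order. Their part in the Fbln7 values was not tested.

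Irx5, an Iroquois homeobox transcription factor, was the steadiest member at 53.5, 53.9 and 60.6 CPM in knockout 1, 2 and 3, against 54.4, 56.8 and 53.4 CPM in wildtype 1, 2 and 3. The highest library exceeded the lowest by only 1.14-fold. The 95% confidence interval of the log2 fold change, -0.28 to 0.35, was the narrowest among the 10 members. Ptprz1, a receptor tyrosine phosphatase that binds pleiotrophin, measured 47.9, 59.6 and 72.5 CPM in knockout 1, 2 and 3, against 61.2, 55.4 and 68.7 CPM in wildtype 1, 2 and 3. Both extremes were knockout libraries, and the log2 fold change of -0.044 ± 0.18 (95% confidence interval -0.46 to 0.37) was small beside that spread.

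The members did not share 1 order of libraries. Wildtype 3 held the highest level of 4 members (Mepe, Phex, Pdpn and Capg) and the lowest level of 3 (Ackr3, Irx5 and Cd44). Wildtype 2 was lowest for Dmp1, Pdpn and Fbln7. Dmp1, Mepe, Phex and Ptprz1 were each highest in the library numbered 3 of both groups, whereas Ackr3 was highest in the library numbered 2 of both. The summed level of all 10 members was 803, 772 and 895 CPM in knockout 1, 2 and 3, against 715, 646 and 814 CPM in wildtype 1, 2 and 3, and overlapped between the groups.

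To set the members against osteoblast transcripts instead of all transcripts, each was divided by the geometric mean of the 9 osteoblast markers in its own library. On this scale the groups separated for Dmp1 and Fbln7. The share of all genes that separate on this scale was not counted, so Dmp1 and Fbln7 are not set apart from other genes by it. The log2 ratio of Dmp1 was -2.36, -2.42 and -2.79 in knockout 1, 2 and 3, against -3.00, -3.26 and -3.32 in wildtype 1, 2 and 3, a mean difference of 0.67. That of Fbln7 was -5.33, -5.68 and -6.53 in knockout, against -6.60, -7.01 and -6.98 in wildtype 1, 2 and 3, a mean difference of 1.02, although knockout 3 nearly met wildtype 1. For Ackr3 the mean difference was 0.97, but knockout 3 at -6.18 fell below wildtype 2 at -6.14. Exact two-sided permutation p-values were 0.1 for Dmp1 and Fbln7 and 0.2 for Ackr3, where 0.1 is the smallest possible. Cd44 (0.52), Pdpn (0.48), Irx5 (0.28), Ptprz1 (0.19), Capg (0.19), Phex (0.063) and Mepe (-0.22) had overlapping groups, with exact p of 0.2 to 0.9. The markers themselves were not level, since 7 of the 9 had a negative fold change, with Sp7 lower in every knockout library (147 ± 30.4 CPM in knockout and 225 ± 18.2 in wildtype). Scaling the libraries to these markers moved the median log2 fold change of all genes to 0.26, and with library size alone it was -0.21.

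**Figure D2:**
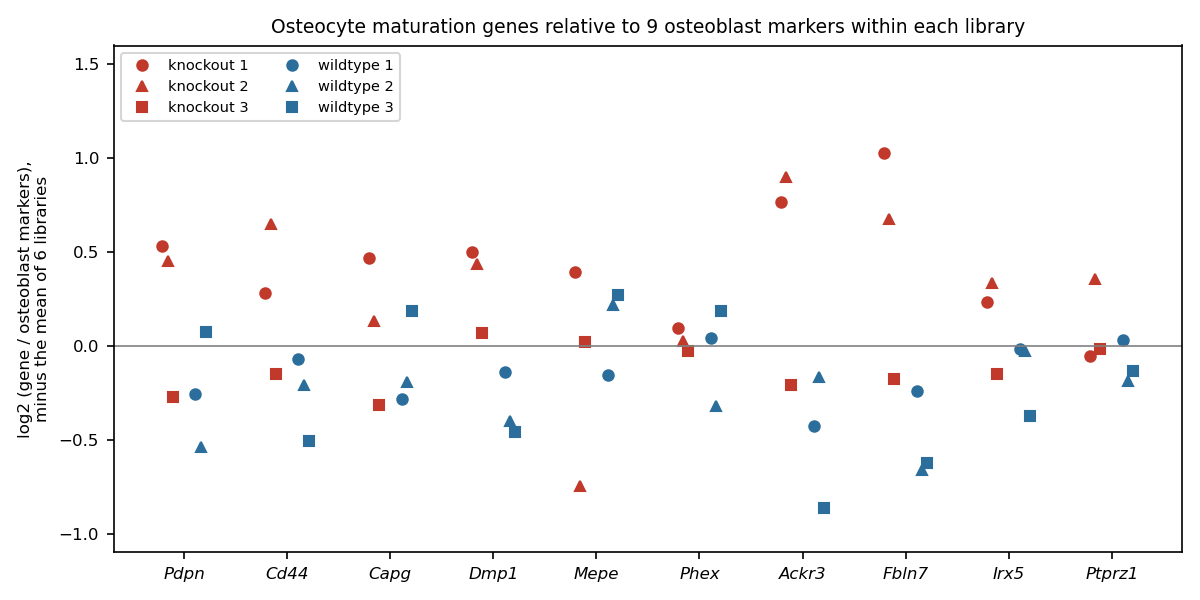
Log2 ratio of each osteocyte maturation gene to the geometric mean of 9 osteoblast markers within a library, shown as the difference from the mean of all 6 libraries; red points are knockout and blue points wildtype libraries. Dmp1 and Fbln7 separate by group, and the Phex points of both groups intermix. The share of all genes that separate on this scale was not counted.

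Other osteocyte genes, from a list of 12, had fold changes of both signs too. Of the 10 that could be tested 6 were positive and 4 negative, with a median log2 fold change of 0.035 and 0 past the threshold, against 2 positive and 8 negative with library size alone. Dkk1, a secreted Wnt antagonist, measured 14.3, 12.3 and 15.8 CPM in knockout 1, 2 and 3, against 21.3, 24.1 and 46.2 CPM in wildtype 1, 2 and 3, and every knockout library was lower. Its log2 fold change of -1.11 ± 0.29 did not pass (edgeR adjusted p = 0.273) and was -0.69 without wildtype 3 and -0.60 against wildtype 1 alone. Dkk1 was called by DESeq2 (adjusted p = 0.0273), and by edgeR without wildtype 1 (adjusted p = 0.0459). Sost, the late gene for sclerostin, measured 8.52, 6.12 and 10.2 CPM in knockout 1, 2 and 3, against 7.08, 12.0 and 15.9 CPM in wildtype 1, 2 and 3, with overlap (-0.49 ± 0.31, and 0.21 against wildtype 1 alone). Kera, encoding keratocan, measured 10.02, 8.34 and 2.88 CPM in knockout 1, 2 and 3, against 2.14, 3.48 and 0.239 CPM in wildtype 1, 2 and 3, also with overlap (1.87 ± 0.70).

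Gja1, encoding connexin 43 of the osteocyte gap junction, was higher in every knockout library at 343 ± 4.94 CPM in knockout and 289 ± 12.5 in wildtype (0.25 ± 0.15, edgeR adjusted p = 0.425). The transcription factor gene Mef2c, which acts on Sost, measured 132 ± 39.8 CPM in knockout and 175 ± 38.3 in wildtype (-0.41 ± 0.24). Fam20c, the kinase that phosphorylates secreted proteins such as DMP1, stood at 0.20 ± 0.21 (0.010 without knockout 3) and Galnt3, which protects FGF23 by glycosylation, at -0.055 ± 0.26. The membrane metalloprotease Mmp14 (0.068 ± 0.17), the RANKL gene Tnfsf11 (0.11 ± 0.22) and the surface protein gene Cd109 (0.0024 ± 0.17) each differed by less than 1 standard error, and Mmp14, Tnfsf11, Fam20c and Cd109 were negative with library size alone. Fgf23 had 11, 11 and 0 counts in the knockout libraries and 7, 3 and 0 in the wildtype libraries, and Wnt1 4, 10 and 4 in the knockout libraries and 5, 0 and 0 in the wildtype libraries, both too low to test.

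**Figure D3:**
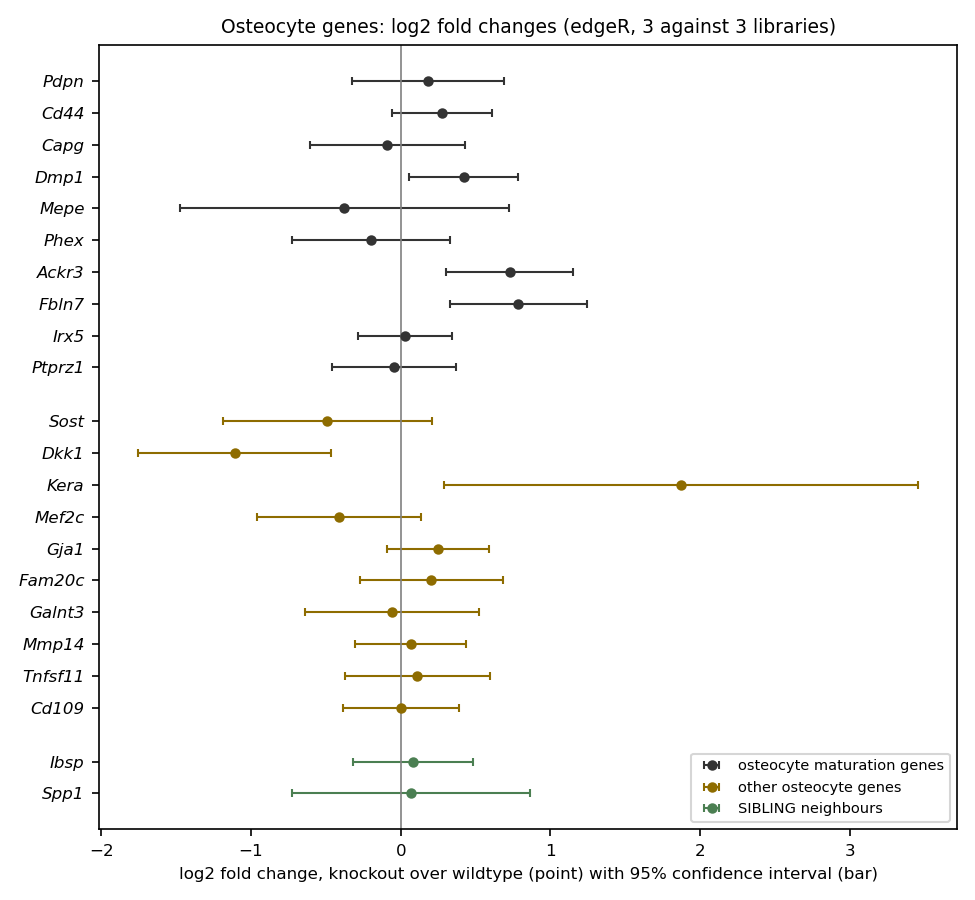
Log2 fold change of knockout over wildtype for the 10 members, 10 other osteocyte genes and 2 SIBLING neighbours (points) with 95% confidence intervals (bars). The intervals of Dmp1, Ackr3, Fbln7, Kera and Dkk1 do not include 0, but none of these genes passed after adjustment.

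Genes that work with the members were examined by role. In these lists 0 genes passed the threshold in edgeR with all 6 libraries, TMM factors, the low-count filter and no covariates. Without the filter 1 gene of the phosphate axis was called higher. Among 9 partners of podoplanin and CD44, 8 could be tested, 4 with a positive and 4 with a negative fold change. Ezr, encoding ezrin, which ties both proteins to actin, measured 52.9, 51.6 and 42.5 CPM in knockout 1, 2 and 3, against 31.1, 29.6 and 21.02 CPM in wildtype 1, 2 and 3. The groups were far apart for its spread (0.85 ± 0.19, edgeR adjusted p = 0.273), while its relatives Rdx (0.025 ± 0.18) and Msn (-0.0071 ± 0.15), named after their values were seen, overlapped, at -0.20 and -0.22 with library size alone. The hyaluronan synthase gene Has1 measured 20.9 ± 5.53 CPM in knockout and 6.90 ± 5.12 in wildtype (1.59 ± 0.58), with wildtype 3 lowest at 1.08 CPM. Hmmr, a hyaluronan receptor that also serves the mitotic spindle, measured 9.46 ± 2.01 CPM in knockout and 14.1 ± 1.68 in wildtype (-0.58 ± 0.21). Both separated the groups without passing (edgeR adjusted p = 0.302 each).

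In the chemokine system of Ackr3, its partner receptor gene Cxcr4 measured 17.3, 12.9 and 7.08 CPM in knockout 1, 2 and 3, against 5.55, 6.89 and 4.30 CPM in wildtype 1, 2 and 3. Adm, encoding adrenomedullin, a peptide that ACKR3 also binds, measured 7.38, 7.30 and 6.99 CPM in knockout 1, 2 and 3, against 4.72, 3.96 and 2.75 CPM in wildtype 1, 2 and 3. Ackr3, Cxcr4 and Adm were thus each higher in every knockout library, with log2 fold changes of 1.16 ± 0.33 for Cxcr4 and 0.92 ± 0.26 for Adm and an edgeR adjusted p of 0.273 for both. Their ligand gene Cxcl12 varied widely, at 162, 115 and 66.9 CPM in knockout 1, 2 and 3, against 176, 94.0 and 289 CPM in wildtype 1, 2 and 3. Its log2 fold change of -0.70 ± 0.41 was -0.25 without wildtype 3. Cxcr4 is a gene of blood cells, and the macrophage and neutrophil sums given above were higher in every knockout library; their part in the Cxcr4 values was not tested.

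**Figure D4:**
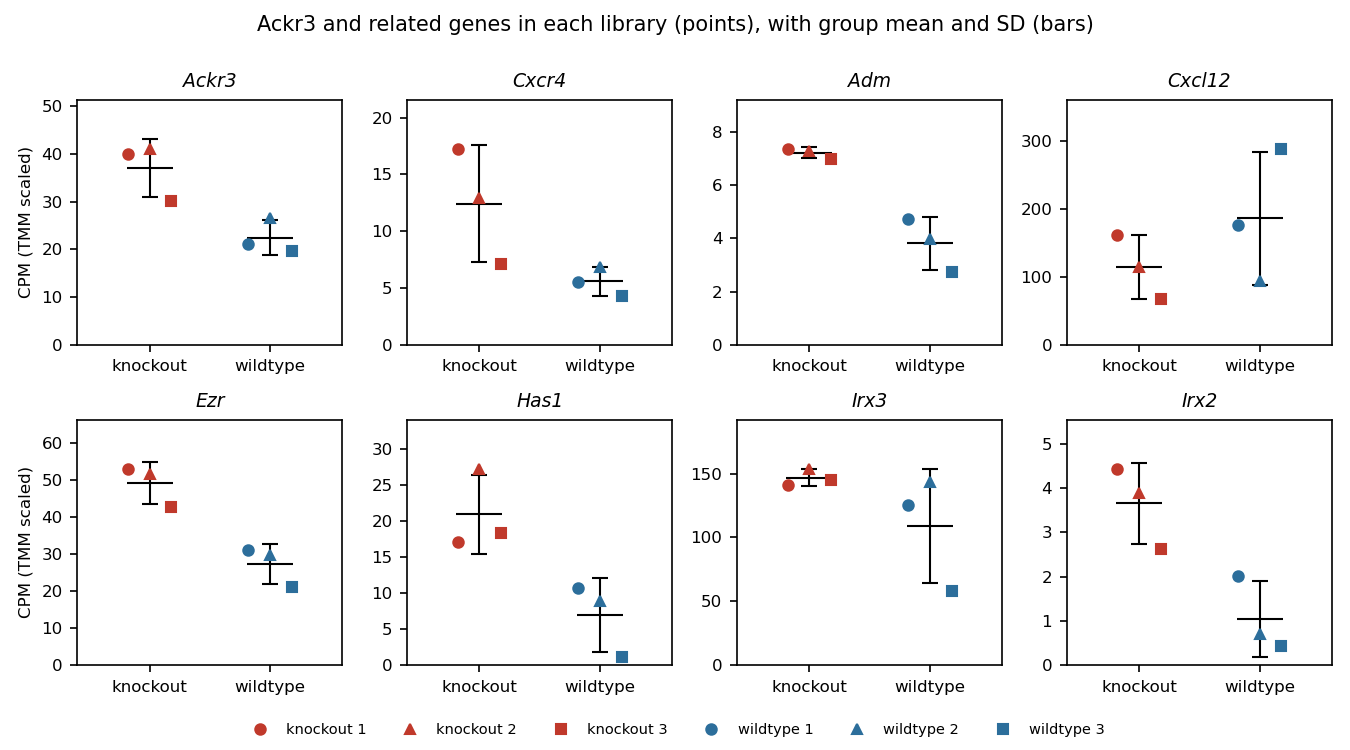
Level of Ackr3, its partner receptor Cxcr4, the ligands Adm and Cxcl12, and the related genes Ezr, Has1, Irx3 and Irx2 (CPM, TMM scaled; linear axes from 0) in each knockout and wildtype library, with group mean and SD. Ackr3, Cxcr4, Adm, Ezr, Has1 and Irx2 separate by group, whereas Cxcl12 and Irx3 overlap.

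Around the other members, 4 Iroquois genes beside Irx5 could be tested and all 4 had a positive fold change, also with library size alone. Irx3, the most abundant of them, measured 147 ± 6.54 CPM in knockout and 109 ± 44.9 in wildtype (0.43 ± 0.29, and 0.12 without wildtype 3), Irx2 3.65 ± 0.927 and 1.04 ± 0.851 (1.77 ± 0.56), and Irx1 1.26 ± 0.332 and 0.541 ± 0.469 (1.17 ± 0.85, and 0.62 without wildtype 2). Irx1 had 0 counts in wildtype 2, and Irx6 had 0 in wildtype 3 (0.82 ± 0.89). Only 2 of these 4 genes passed a filter of 1 CPM in 3 libraries. Among 6 fibulins beside Fbln7, 5 had a positive fold change (4 with library size alone), led by Hmcn1 (1.03 ± 0.28), Fbln2 (0.94 ± 0.28) and Efemp1 (0.73 ± 0.35), of which Hmcn1 alone separated the groups. Of 6 tested actin-capping and severing genes beside Capg, 2 were positive and 4 negative (5 positive and 1 negative with osteoblast scaling). They included Scin, encoding adseverin (6.30 ± 3.10 CPM in knockout and 1.38 ± 1.52 in wildtype, with 0 counts in wildtype 2), Gsn, encoding gelsolin (618 ± 113 and 819 ± 161 CPM), and Capza1 (9.63 ± 0.467 and 11.2 ± 0.829 CPM). The ligands of PTPRZ1 did not separate, with Ptn, encoding pleiotrophin, at 217 ± 13.4 CPM in knockout and 192 ± 36.1 in wildtype, Tnc, encoding tenascin-C, at 1921 ± 196 and 2184 ± 459, and the contactin gene Cntn1 at 3.10 ± 2.10 and 1.80 ± 1.21. In the phosphate axis of Phex, the transporter gene Slc20a1 measured 45.9, 52.2 and 39.9 CPM in knockout 1, 2 and 3, against 26.5, 17.7 and 12.9 CPM in wildtype 1, 2 and 3. Its log2 fold change was 1.27 ± 0.25 (edgeR adjusted p = 0.273), with Enpp1, which makes pyrophosphate, at 0.28 ± 0.25 (0.016 without knockout 3 and 0.52 without wildtype 3) and the pyrophosphate exporter gene Ank at 0.11 ± 0.24 (Ank named after its values were seen, and -0.12 with library size alone). Slc20a1, Ezr, Hmcn1 and Fbln2 were called by DESeq2 (adjusted p = 0.000864, 0.0114, 0.0234 and 0.0386). Without wildtype 1, edgeR called Slc20a1, Ezr, Hmcn1 and Irx2 (adjusted p = 0.0301, 0.0481, 0.0342 and 0.0400). Markers of other cells were called higher in the same settings. By DESeq2 these were 1 of 10 chondrocyte, 3 of 8 endothelial, 4 of 8 macrophage, 2 of 7 neutrophil and 2 of 5 tested osteoclast markers. By edgeR without wildtype 1 they were 7 of 10 chondrocyte, 7 of 8 endothelial, 0 of 8 macrophage, 0 of 7 neutrophil and 1 of 5 tested osteoclast markers. DESeq2 also called 1 of 9 osteoblast markers lower, Sp7 (adjusted p = 0.0496). Against wildtype 1 alone the log2 fold changes were smaller, at 0.79 for Slc20a1, 0.65 for Ezr, 0.49 for Hmcn1, 0.86 for Irx2, 0.95 for Has1 and 1.06 for Scin.

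**Figure D5:**
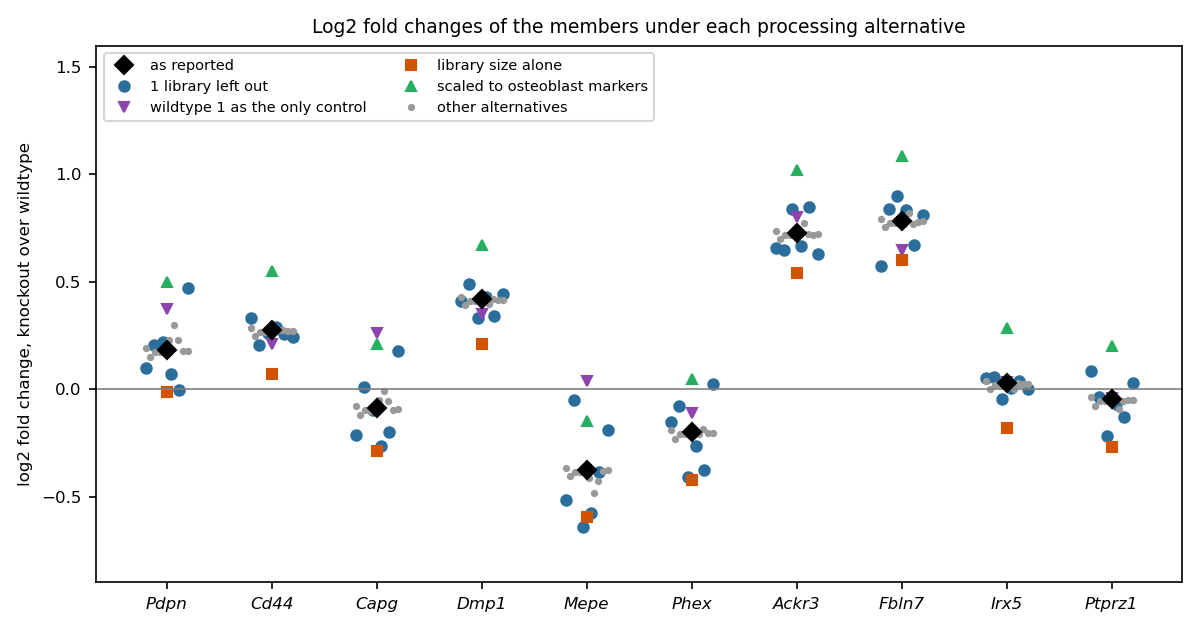
Log2 fold change of knockout over wildtype for each member under every processing alternative; the black diamond is the value reported above and the other symbols are alternatives. Ackr3, Fbln7, Dmp1 and Cd44 stay above 0 throughout, and the other 6 members cross it under at least 1 alternative.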

How the data were processed

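The authors deposited 1 table of unnormalized whole-number read counts, with 27179 Entrez gene IDs as rows and a column for each of the 6 libraries. The submitters' processing notes name CASAVA 1.7, Subread, featureCounts and build mm10. How RNA was selected, whether strand was kept and which annotation served are not stated in the labels. RefSeq (GRCm38.p6) named 25275 IDs and GENCODE M21 18 more; the other 1886 stayed in totals and tests. The 10 members and all gene lists were chosen with earlier results of these data known.

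Knockout and wildtype were compared with edgeR 4.0.16 in R 4.3.3 (filterByExpr, TMM factors of 0.813 to 1.09, two-sided quasi-likelihood test, no covariates, Benjamini-Hochberg adjustment over 13505 genes); all 10 members passed the filter. CPM values are TMM scaled, with the SD taken over 3 libraries; each log2 fold change sets knockout over wildtype and carries its SE. The fitting was tested on simulated data. The text names Cdc73, the members, all other osteocyte and SIBLING genes, up to 3 genes of smallest p from each related list, and abundant markers. A further marker list is not reported here.

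The alternatives were DESeq2 size factors, upper-quartile factors, library size alone, scaling to osteoblast markers, no filter, a filter of 1 CPM in 3 libraries, DESeq2 1.42.0, limma 3.58.1 voom with and without quality weights, a block for the replicate number, removal of unnamed IDs, each library left out, and wildtype 1 as the only control. Removal of the most abundant unnamed ID, and DESeq2 with each library left out for Ackr3 and Fbln7, were chosen after seeing the data.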

Additional observations from a re-analysis of the deposited data

How the results depend on the processing

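The count of genes past the threshold, 0 in edgeR with 1974 at an unadjusted p under 0.05, was 7 with libraries scaled to osteoblast markers, 24 without a filter, 248 with DESeq2 (1310 further genes had no adjusted p) and 236 with the replicate block. With 1 library left out it ranged from 0 to 409, with 409 without wildtype 1. Deviations from the group means correlated at 0.115, -0.0743 and 0.222 for the libraries numbered 1, 2 and 3. Knockout 1 and knockout 3 correlated best with the wildtype library of the same number, but knockout 2 with wildtype 1 (0.347). With 3 libraries in a group these correlations cannot decide whether the replicate numbers pair the libraries. The block is given only here. It also called Slc20a1, Ezr, Dkk1 and Kera (adjusted p = 0.01397, 0.0392, 0.04495 and 0.0310), along with 8 of 10 chondrocyte, 7 of 8 endothelial, 5 of 8 macrophage, 1 of 7 neutrophil and 1 of 5 tested osteoclast markers. Under the block Ackr3 was 0.72 and Fbln7 0.77 on the log2 scale, with edgeR adjusted p of 0.0832 and 0.0885. The median log2 fold change of the members was -0.096 with library size alone and 0.39 with osteoblast scaling, settings under which the median over all genes was -0.21 and 0.26, and 0.018 to 0.21 with 1 library left out. Relative to those shifts Ackr3 stood at 0.75 and 0.76, Fbln7 at 0.81 and 0.82 and Dmp1 at 0.42 and 0.41.

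Of 190 member values under the alternatives, 174 kept direction and side of the threshold, 2 (DESeq2 for Ackr3 and Fbln7, 0.73 and 0.79) became calls and 14 turned sign. With library size alone Pdpn was -0.013 and Irx5 -0.18; with osteoblast scaling Phex was 0.049, Ptprz1 0.20 and Capg 0.21; with wildtype 1 as the only control Mepe was 0.036 and Capg 0.26. Leave-one-out values ran from -0.22 to 0.087 for Ptprz1, -0.26 to 0.18 for Capg, -0.047 to 0.058 for Irx5, -0.0029 to 0.47 for Pdpn and -0.41 to 0.026 for Phex. Ratios to the osteoblast markers ranged from -0.47 to 0.098 for Mepe and from -0.082 to 0.17 for Phex with 1 library left out; the cause of these turns was not tested. Mepe rests on 11 to 42 counts a library.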

Other observations

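Markers of other cells in the sorted fraction were also summed for cell types not set beside a member above. Osteoclast markers, led by Ctsk and Mmp9, summed to 522 to 635 CPM in knockout and 413 to 599 CPM in wildtype libraries, with 4 of the 5 tested of 6 positive. Ctsk, the largest part of the sum, overlapped between the groups (355 ± 62.2 CPM in knockout and 367 ± 108 in wildtype). Mmp9 (184 ± 17.2 and 91.9 ± 25.2 CPM) and Acp5 (38.0 ± 3.65 and 23.2 ± 1.45 CPM) were higher in every knockout library, against 10.6% of all genes. Neither Mmp9 nor Acp5 passed in edgeR (adjusted p = 0.273 each), but DESeq2 called both (adjusted p = 0.000915 and 0.0123). Ocstamp had 23, 15 and 10 counts in knockout 1, 2 and 3, against 12, 0 and 2 in wildtype 1, 2 and 3. Dcstamp had 14, 12 and 10 counts, against 8, 0 and 8. Both were also higher in every knockout library. They met the low-count filter only through the knockout libraries, so their separation is no evidence of a difference. Calcr was at 0 in 4 libraries and Ocstamp and Dcstamp in 1 each. Fibroblast and suture markers, led by Postn and Lum, summed to 4609 to 6770 CPM in knockout and 5033 to 6111 CPM in wildtype libraries, with 4 of 7 positive and a median log2 fold change of 0.012. Red cell genes, led by Hba-a2 and Hba-a1, summed to 42.5 to 344 CPM in knockout and 14.6 to 106 CPM in wildtype libraries, with all 4 positive and Alas2 at 0 in 1 library.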
